A study of Homo sapiens with 7 samples.

Results

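Peaks of 5-hydroxymethylcytosine (5-hmC) called in SK-N-BE(2) cells after 6 and 12 h in low oxygen were compared with those called at 0 h. SK-N-BE(2) is an established neuroblastoma cell line with amplified MYCN, labelled as wild type and grown in RPMI with 10% serum. A region was counted as gained when peaks of the 6 h and 12 h lists (1% oxygen) overlapped by at least 1 bp and no peak of the 0 h list (21% oxygen) touched them. It was counted as lost when a 0 h peak overlapped neither list. On the autosomes, the 3 lists merged into 340495 regions, of which 23081 were gained and 22589 were lost, together 45670. The whole series of 6 lists, which adds 24, 48 and 72 h in 1% oxygen, holds 407675 autosomal regions. The later lists did not set the members and served as a separate readout.

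5-hmC is made from 5-methylcytosine by the TET dioxygenases, enzymes that need molecular oxygen, iron and 2-oxoglutarate, and it marks gene bodies and active regulatory DNA in many cell types. Low oxygen also stabilises the HIF transcription factors, and MYCN is a transcription factor of the MYC family that is amplified in aggressive neuroblastoma. The series' title ties 5-hmC in hypoxia to regulation of TET1 by MYCN. The comparison of 6 and 12 h with 0 h covers the earliest hypoxia times of the series. Here 5-hmC was measured by chemical labelling and capture of 5-hmC-bearing DNA fragments, followed by sequencing.

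The 0 h list held 280942 autosomal peaks covering 144.9 Mb, the 6 h list 288234 peaks covering 155.2 Mb and the 12 h list 289681 peaks covering 152.3 Mb. The 0 h list was thus the shortest of the 3. Each time point is a single library, and no comparison below has a replicate error or a test. The intervals given are exact binomial (Clopper-Pearson, 95%) and cover counting error over regions only. Time in culture and low oxygen cannot be told apart, because normoxia was sampled at 0 h alone. The lists carry no heights or read numbers, so depth is unknown and a region absent from a list is one that was not called there.

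The first question was how many regions changed beyond the disagreement of the 6 h and 12 h lists with each other. More regions appeared than that disagreement gives, whereas in the lists as they stand the number that disappeared was not above it. Regions shared by 6 and 12 h and missing at 0 h numbered 23081 (6.78% of all 340495). The corresponding regions that only the 12 h list lacked numbered 15356 (4.51%), and those that only the 6 h list lacked numbered 15252 (4.48%). Gained regions were therefore 1.5 and 1.51 times as many as these. Regions of the 0 h list alone numbered 22589 (6.63%), fewer than those of 6 h alone (26179, 7.69%) or of 12 h alone (25787, 7.57%). The lost regions thus made up 0.863 and 0.876 of the numbers found in a single hypoxia list.

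**Figure D1:**
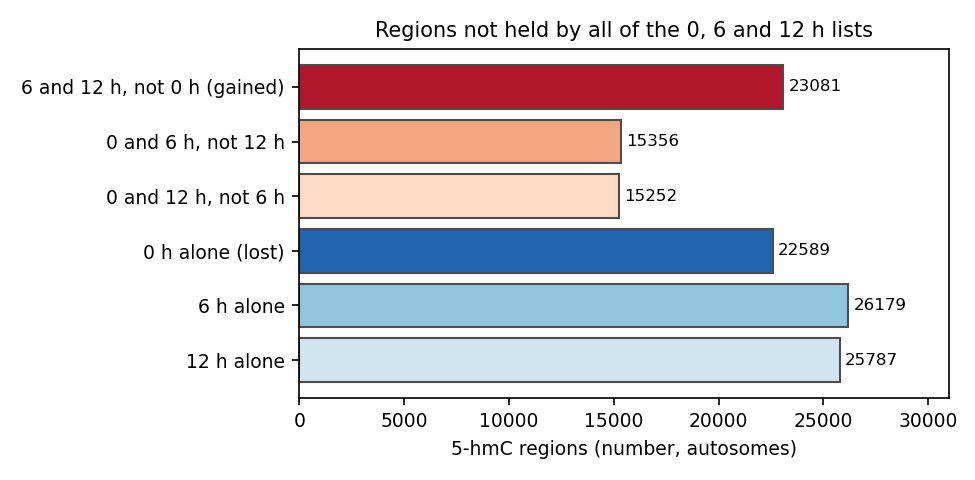
Number of autosomal 5-hmC regions (x axis) held by some but not all of the 0, 6 and 12 h lists, 1 bar per combination of lists. The 23081 gained regions exceed the 15356 and 15252 that a single hypoxia list lacked, and the 22589 lost regions lie below the 26179 and 25787 of a single hypoxia list.

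The same order was seen peak by peak. Of the 6 h peaks, 17.6% overlapped no 0 h peak (interval 17.4 to 17.7%) and 14.7% overlapped no 12 h peak (14.6 to 14.9%). Of the 12 h peaks, 17.4% had no 0 h counterpart and 14.5% no 6 h counterpart. In the other direction, 13.9% of 0 h peaks had no 6 h counterpart and 14.0% no 12 h counterpart, both below the disagreement of the hypoxia lists. Since the 0 h list is the shortest, peaks of the other lists more easily lack a partner in it. With the 3 lists brought to the same number of peaks, widest first, gained regions were 1.26 and 1.31 times those that a single hypoxia list lacked. Lost regions then turned slightly above those in a single hypoxia list, at 1.01 and 1.06 times. This setting leaves the 0 h list whole and takes narrow peaks out of the other lists.

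Members were narrow. The widest peak of a gained region had a median of 329 bp and reached 500 bp in 8.48% of gained regions, against a median of 538 bp in the 212251 regions held by all 3 lists. The matched classes, which a single hypoxia list lacked, were much alike at medians of 321 and 319 bp, with 7.71 and 6.86% reaching 500 bp. Lost regions had a median of 256 bp, and 20.2% of them had exactly the narrowest width of the 0 h list, 226 bp. In the regions of 6 h or 12 h alone the medians were 268 and 263 bp, and 17.9% of each lay at the narrowest width of their list. In covered length the gained regions amounted to 8.76 Mb and the lost regions to 6.22 Mb, a ratio of 1.41, although their numbers had a ratio of 1.02. A lost region holds 1 peak and a gained region at least 2 overlapping ones, so their widths are not measured alike.

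Near the overlap threshold the members were few. Of the regions that 6 and 12 h shared, 26 missed a 0 h peak by less than 10 bp, with a median of 281 bp for the narrower of their 2 peaks, and 13 touched 0 h peaks over less than 10 bp, with a median of 252 bp. Gained regions lay a median of 1.58 kb from the nearest 0 h peak, and 38.5% of them lay within 1 kb. The 6 h-only regions lay at 1.61 kb and the 12 h-only regions at 1.66 kb, so the distance of gained regions to normoxic peaks was close to that of regions in a single hypoxia list. Lost regions lay 1.5 kb from the nearest 6 h peak and 1.52 kb from the nearest 12 h peak.

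The 10 gained regions with the widest peaks, ranked by the narrower of their 6 h and 12 h peaks, were all overlapped by a peak in each of the 24, 48 and 72 h lists. In hg19 coordinates, the first was chr3:186588300-186589787, with no peak at 0 h and peaks of 1410, 1167, 549, 1598 and 1648 bp at 6, 12, 24, 48 and 72 h. It was wide at every hypoxia time except 24 h, and the nearest 0 h peak lay 1225 bp away. The second, chr2:80094376-80095767, had peaks of 1392, 1115, 1091, 1224 and 1385 bp in the same order of times, and no 0 h peak within 6302 bp. Its peaks exceeded 1000 bp at every hypoxia time.

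The third, chr18:46441576-46442636, measured 911, 994, 968, 845 and 1564 bp from 6 to 72 h, but a 0 h peak ended 62 bp away, so it adjoined a normoxic peak. The fifth, chr7:1481212-1482173, measured 891, 905, 1349, 1032 and 895 bp and was widest at 24 h. The ninth, chr1:31011122-31011948, measured 827, 799, 763, 806 and 866 bp and hardly changed between 6 and 72 h.

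Other leading gained regions had narrower peaks after 12 h. The regions were ranked by their 6 h and 12 h widths, and that choice alone favours narrower later peaks. The region chr7:23946062-23946956 measured 830 and 818 bp at the early times, then 316, 379 and 377 bp at 24, 48 and 72 h. The region chr12:93709019-93710258 measured 1155 and 760 bp early, then 301, 533 and 696 bp. The region chr3:13455581-13456464 measured 829 and 868 bp early, 683 and 766 bp at 24 and 48 h, and 287 bp at 72 h. The region chr8:143367366-143368344 measured 929 and 896 bp early, then 701, 606 and 635 bp. These 4 were narrower at each later time than at 6 h. The last, chr3:93706073-93706983, measured 818 and 889 bp early, then 579, 1048 and 1052 bp. Genes at these positions are not named, since no annotation of hg19 was used here.

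Of the 10 lost regions with the widest 0 h peaks, only 1 stayed absent. They were chosen for a wide 0 h peak and absence at 6 and 12 h, and that choice alone favours later peaks there. This was chr18:25696843-25697789, with a peak of 947 bp at 0 h and none in any of the 5 hypoxia lists. The other 9 were overlapped by a later peak, 6 of them in all 3 later lists. At chr2:120442159-120443018 the 0 h peak of 860 bp was missing at 6 and 12 h and followed by peaks of 566, 849 and 396 bp at 24, 48 and 72 h. At chr5:1634426-1635203 the 0 h peak of 778 bp was followed by peaks of 309, 859 and 456 bp. In both, the 48 h peak was the widest of the later ones and close to the 0 h width.

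At chr6:34118549-34119353 the 0 h peak measured 805 bp, and the later peaks 233, 440 and 719 bp. At chr5:148912106-148912929 a 0 h peak of 824 bp gave way to peaks of 324, 653 and 356 bp, and at chr11:42788112-42788875 one of 764 bp to peaks of 296, 316 and 362 bp. The first of these regained most of its width by 72 h, and the other pair were narrower at 72 h than the first. At chr7:129443090-129443873 (784 bp at 0 h) peaks were present at 24 and 48 h but not at 72 h, at chr2:153356352-153357083 (732 bp) at 24 h alone, and at chr14:21069206-21069925 (720 bp) at 72 h alone. At chr8:52808619-52809488 a 0 h peak of 870 bp was followed by peaks of 287, 620 and 418 bp. The nearest 6 or 12 h peak lay 84 bp from the region on chromosome 14 and 91 bp from that on chromosome 8. It lay 130 bp from chr5:148912106-148912929 and 200 bp from the region on chromosome 7. For the others it lay at least 873 bp away.

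The next comparison asked whether early gains and losses lasted, using the 24, 48 and 72 h lists. Most gained regions were found again, and most lost regions were overlapped by a peak of at least 1 later list. The later lists were longer, with 307172, 331251 and 346595 autosomal peaks at 24, 48 and 72 h against 280942 at 0 h. Shares also rose with time in regions of 6 h alone (39.7, 49.5 and 54.4%) and of 12 h alone (41.6, 52.3 and 56.1%). A rise is thus not particular to lost regions. Of the gained regions, 72.7, 79.4 and 79.7% were overlapped by a peak at 24, 48 and 72 h. In all 3 later lists were 56.1% of them (12958 of 23081, interval 55.5 to 56.8%), and in none were 5.87%. Of the lost regions, 35.4, 41.6 and 48.2% were overlapped at the same times. In no later list were 33.0% of them (7449 of 22589, 32.4 to 33.6%), and in all 3 were 17.6%.

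Gained regions were held more often than regions shared by 0 h and a single early hypoxia list. In all 3 later lists were 47.2% of the regions of 0 and 6 h without 12 h (46.4 to 48.0%) and 48.6% of those of 0 and 12 h without 6 h (47.8 to 49.4%). Regions held by all of the 0, 6 and 12 h lists were in all 3 later lists in 93.0% of cases. Lost regions were missing more often than regions of a single hypoxia list. In no later list were 26.9% of the regions of 6 h alone (26.3 to 27.4%) and 25.0% of those of 12 h alone (24.5 to 25.5%), against the 33.0% of lost regions. The counting intervals of these classes did not overlap, but the libraries are single and the spread between libraries of 1 condition is not known.

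**Figure D2:**
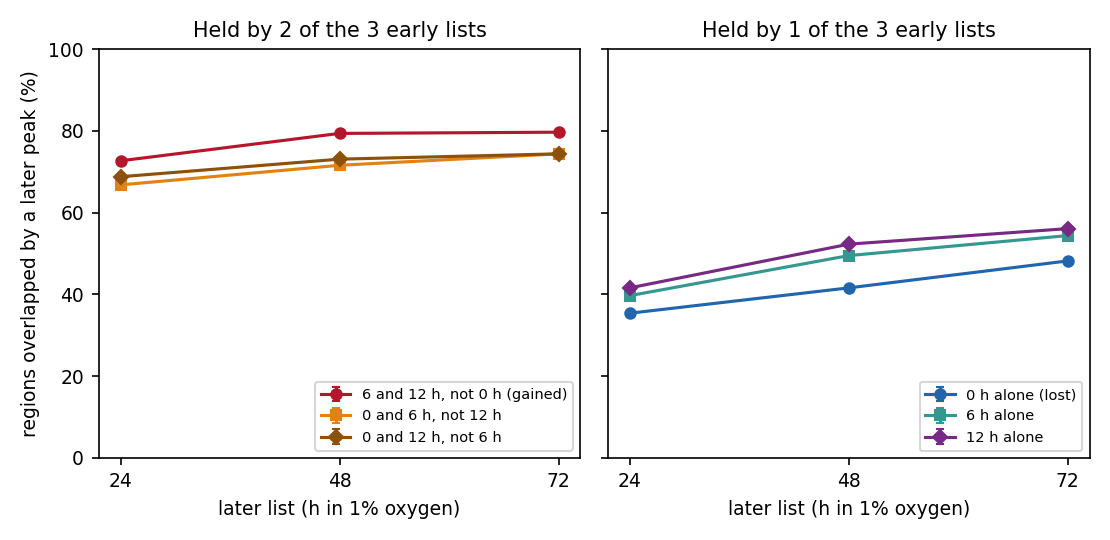
Share of regions overlapped by a peak of the 24, 48 or 72 h list (y axis, with 95% Clopper-Pearson intervals mostly smaller than the symbols) by time of the later list (x axis), for regions held by 2 early lists (left) and by 1 early list (right). Gained regions lie above the other classes on the left, at 72.7, 79.4 and 79.7%, and lost regions below them on the right, at 35.4, 41.6 and 48.2%.

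Wide regions lasted more often in every class, and gained regions stood above both classes that a single hypoxia list lacked in each range of width, while lost regions were absent later more often than regions of a single hypoxia list up to 700 bp. Among regions under 300 bp, 43.6% of gained regions were in all 3 later lists, against 37.0% of those lacking 12 h alone and 39.9% of those lacking 6 h alone. From 300 to under 400 bp the shares were 59.3, 50.9 and 51.2%, from 400 to under 500 bp 64.9, 55.4 and 57.8%, and from 500 to under 700 bp 70.3, 61.6 and 64.4%. Above that they were 84.7, 72.1 and 71.2%, over 261 gained regions and fewer of the others. Between 500 and 700 bp the intervals of the gained regions (68.1 to 72.5%) and of those lacking 12 h alone (58.6 to 64.6%) did not overlap.

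For lost regions under 300 bp, 35.6% were in no later list, against 29.9% for 6 h alone and 28.1% for 12 h alone. From 400 to under 500 bp the shares were 20.5, 15.3 and 13.3%. From 500 to under 700 bp, with 249 lost regions, they were 14.5% (10.3 to 19.4%), 11.6% and 9.45%, and the intervals overlapped. Of the 18 lost regions of at least 700 bp, 1 was in no later list.

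**Figure D3:**
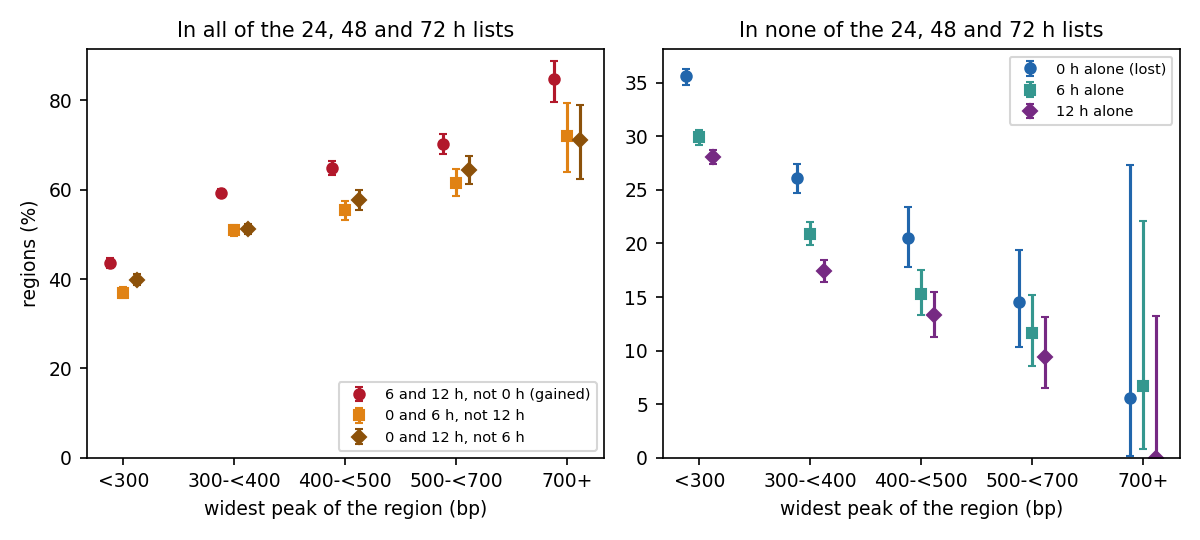
Share of regions (y axis, with 95% Clopper-Pearson intervals) found in all 3 later lists (left) or in none (right) by the width of their widest early peak (x axis). From 300 to under 400 bp gained regions stand at 59.3% against 50.9 and 51.2%, and lost regions at 26.1% against 20.9 and 17.4%.

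Gained regions that lasted became wider. Among gained regions overlapped in all later lists, taken from regions merged over all 6 lists (12200), the median peak width was 311, 305, 328, 356 and 379 bp at 6, 12, 24, 48 and 72 h. The lost regions overlapped in all later lists (3538) measured 269 bp at 0 h and 291, 318 and 348 bp at 24, 48 and 72 h. Over the whole lists, peaks had medians of 396, 412, 403, 409, 410 and 423 bp at 0, 6, 12, 24, 48 and 72 h.

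Gained and lost regions were spread differently over the chromosome arms. Over the autosomes gained regions were 1.02 times as many as lost ones. This order turned with equal list lengths, which gave 20430 gained and 24841 lost regions (0.822), and when 0.5 or more of each peak had to be shared, which gave 28174 and 37914 (0.743), whereas peaks of at least 300 bp gave 1.4. Over 39 arms this ratio ran from 0.375 to 1.69. The lowest was the short arm of chromosome 11 (11p), with 220 gained and 586 lost regions (interval of the ratio 0.320 to 0.439). Next came 19p with 243 and 368 (0.660), 18q with 298 and 392 (0.760) and 11q with 647 and 836 (0.774). The highest was the long arm of chromosome 17 (17q), an arm often present in extra copies in neuroblastoma, with 845 gained and 500 lost regions (1.51 to 1.89). It was followed by 1q with 1019 and 688 (1.48) and by 2p with 1000 and 699 (1.43).

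With like classes set against each other, the 6 h and 12 h lists differed more evenly over the arms. The ratio of 6 h-only to 12 h-only regions ran from 0.827 on 18p to 1.13 on 14q, and stood at 0.956 on 11p and 1.05 on 17q. The ratio of regions lacking 12 h alone to those lacking 6 h alone ran from 0.765 on 19p to 1.19 on 9p. Gained over lost instead sets regions that a single list lacked against regions of that list alone. For 12 h these numbered 282 and 344 on 11p, and 373 and 886 on 17q. For 6 h they numbered 307 and 329 on 11p, and 364 and 926 on 17q. In this form the disagreement was uneven over these arms as well. The other 32 arms had gained to lost ratios between 0.890 and 1.34. Over all arms the counting interval lay below 1 in 5 and above 1 in 7. Among the unnamed ones these were 17p (1.34, 1.1 to 1.64), 10p (1.2), 20q (1.16), 1p (1.15) and 3p (0.894). Without the 7 named arms, gained and lost regions numbered 18809 and 18520, again a ratio of 1.02, and gained regions were 1.49 and 1.5 times those that a single hypoxia list lacked. The arms were named for this ratio, so it describes them and is not tested. When overlap of at least 0.5 of both peaks was required, the ratio on 17q was 0.888 in place of 1.69, where that of all autosomes was 0.743, and 17q then ranked 37 of 39 from the lowest, with 1q the highest, while 11p was again the lowest arm at 0.375.

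**Figure D4:**
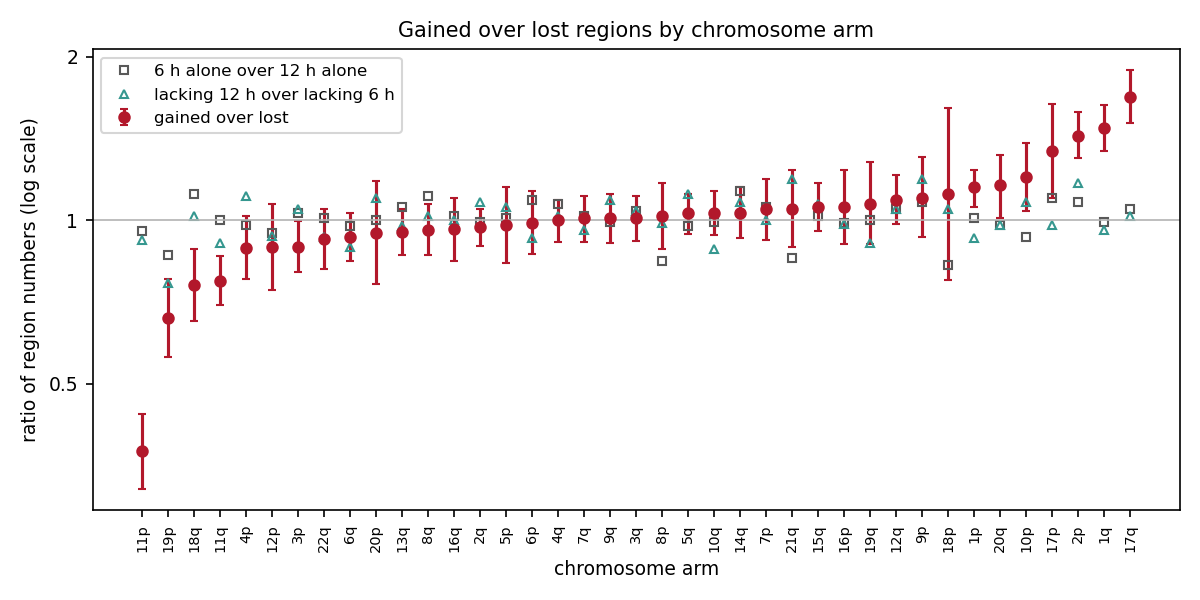
Ratio of gained to lost regions in each of 39 chromosome arms (filled circles, log axis, with 95% intervals from counting error), beside the ratio of 6 h-only to 12 h-only regions (squares) and of regions lacking 12 h to those lacking 6 h (triangles). The arm 11p lies at 0.375 and 17q at 1.69, outside the 0.765 to 1.19 spanned by both kinds of disagreement between 6 and 12 h. Both kinds set like classes against each other, which gained over lost does not.

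Within these arms the pattern ran along their length. In 5 Mb bins, lost regions outnumbered gained ones in all 10 bins of 11p and in 15 of 16 bins of 11q, and gained regions outnumbered lost ones in all 12 bins of 17q, in 20 of 22 bins of 1q and in 14 of 19 bins of 2p. Some unnamed arms were alike, with more gained than lost regions in all 5 bins of 17p and in 18 of 25 bins of 1p. On 11p, 6 h-only regions were more numerous than 12 h-only regions in 5 bins and fewer in 5. Of the 35 bins of 1 Mb on 11p with at least 10 members, 26 had at least 2 times as many lost as gained regions. Of 2003 such bins in all arms 12.3% did, and 11.3% of those on the 32 other arms. Of the 208 on 17q, 1q and 2p, 66 had at least 2 times as many gained as lost regions, where 13.4% of all did and 12.0% on the 32 other arms. The arms were chosen by their gained to lost ratio, so a surplus of such bins on them was set by that choice. For 6 h-only against 12 h-only regions the shares over all arms were 8.44 and 7.21% of 2108 bins. For regions lacking 12 h against those lacking 6 h they were 11.1 and 11.1% of 1519 bins. These classes hold fewer regions (15356 and 15252). Smaller numbers per bin reach 2 times more easily, so these shares are not a matched floor. In 5 Mb bins the shares over all arms were 2.54 and 3.99% of 552 for gained and lost regions. For 6 h-only against 12 h-only regions they were 0.904 and 0.362% of 553.

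Sites that did not enter or leave the lists moved with the arms as well. At 188539 constant sites, held once by every early list, median widths were 429, 452 and 442 bp at 0, 6 and 12 h. Wider than at 0 h were 59.8% of them at 6 h and 55.7% at 12 h, while from 6 to 12 h 45.2% widened. After subtracting the narrowest width of each list (226, 235 and 231 bp), 55.4 and 53.1% were wider than at 0 h. On 17q, 65.8% were wider at 6 h and 62.8% at 12 h, and on 11p 47.4 and 45.0%. The median log2 ratio of widths, 6 h over 0 h, was -0.016 on 11p and 0.094 on 17q, and 12 h over 0 h it was -0.033 and 0.072.

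Over the 39 arms the log2 ratio of gained to lost regions went with the median log2 width ratio at these constant sites, with Pearson's r = 0.839 for 6 h over 0 h and r = 0.873 for 12 h over 0 h. Without 11p these were 0.685 and 0.761 over 38 arms. For 12 h over 6 h, which leaves out the 0 h list, r was -0.128. The arms share their libraries, and both measures contain the 0 h list, so these values are descriptions.

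**Figure D5:**
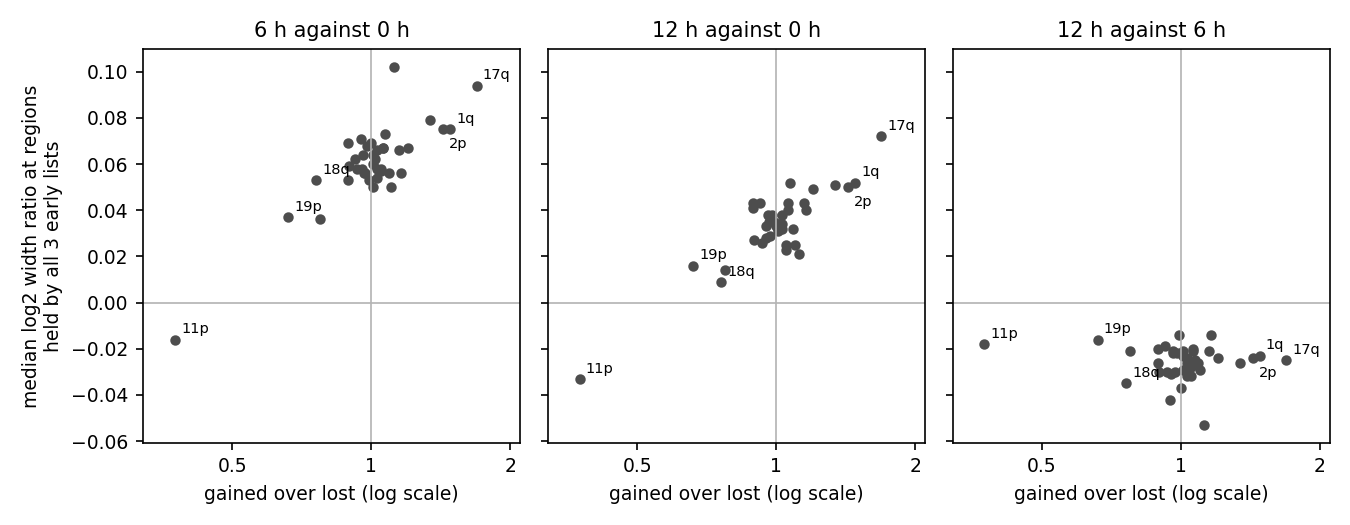
Median log2 ratio of peak widths at regions held once by each of the 0, 6 and 12 h lists (y axis) against the ratio of gained to lost regions (x axis, log scale), 1 point per chromosome arm. Arms with more gains, such as 17q (0.094 and 0.072), widened more against 0 h, 11p lies below 0 at -0.016 and -0.033, and no such order is seen for 12 h against 6 h.

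In later lists the arms did not all keep this position. Peak number relative to 0 h, divided by the ratio of the list totals, was 0.886, 0.897, 0.940, 0.917 and 0.928 on 11p at 6, 12, 24, 48 and 72 h, below 1 at each time. On 17q it was 1.04, 1.04, 1.0, 1.0 and 0.975. On 19p it was 0.938 and 0.962 at 6 and 12 h and 0.885 at 72 h, and on 18q 0.967 and 0.955 early and 1.03 at 72 h. On 11q it was 0.972 and 0.978 early and 0.93 at 72 h. On 1q it was 1.03 at 6 and 12 h and 1.02 at 72 h, and on 2p 1.03, 1.02 and 1.0. So 11p, 11q and 19p were low and 1q high throughout, while 17q was high and 18q low at 6 and 12 h alone. Low numbers throughout were not particular to the named arms, since 22q was below 1 at each time and stood at 0.918 at 72 h. All these values share the 0 h list.

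Single 1 Mb bins lay partly on these arms. The 10 bins with the most gained regions included 4 on 17q, 1 on 2p and 3 on 1p, which is not among the named arms, led by that between 76 and 77 Mb on chromosome 17, which had 37 gained and 18 lost regions. The bin at 74 to 75 Mb of the same chromosome had 31 and 15. In these bins, 261 and 242 regions were held by all 3 early lists. Chromosome 2 from 47 to 48 Mb held 30 gained and 7 lost, the largest difference toward gain. The 10 with the most lost regions included 5 on 19p, 1 on 11p and 2 on 16p, and were led by chromosome 4 from 1 to 2 Mb, with 36 lost and 15 gained regions. The first Mb of chromosome 11 had 33 lost and 5 gained, the largest difference toward loss, with 16 regions of 6 h alone and 12 of 12 h alone. Ranking by number favours dense bins, so these lists partly name such bins. The decile of bins with the fewest 0 h regions held 252 gained and 287 lost regions. The densest decile held 4786 and 4509.

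Against its arm, the bin of chromosome 2 from 16 to 17 Mb had 1 gained and 18 lost regions. The bin before it had 19 gained and 12 lost and the bin after it 12 and 7. Its 6 h-only and 12 h-only regions numbered 7 and 8, and those lacking 12 h or 6 h alone 7 and 5. The 2 hypoxia lists thus also differed there, and 150 of its regions were held by all 3 lists.

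The density of the mark was examined as well. In the decile of 1 Mb bins with the fewest 0 h regions there were 15.5 gained and 17.7 lost regions per 100 regions of the 0 h list, and in the densest decile 7.5 and 7.06. Regions of 6 h alone and 12 h alone followed the same course, with 20.9 and 20.5 per 100 in the sparsest decile and 8.11 and 8.18 in the densest, so this is not particular to gains and losses. The ratio of gained to lost regions ran from 0.878 in the sparsest to between 0.961 and 1.07 in the other 9 deciles.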

How the data were processed

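Each deposited list gives chromosome, start and end of peaks, with no header and no score; the authors' positions, a unit of bp coordinates, were used as they stand. The submitters' processing notes list BWA 0.7.17, MACS2, HTSeq and hg19 and give no roles. The calling threshold is not given in the sources used here; the input was not analysed here. Peaks of the 0, 6 and 12 h lists on 22 autosomes were merged where they overlapped by at least 1 bp. Each peak list is 1 library.

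Members and lists were chosen with earlier results of these data known. Named were the 10 widest gained and lost regions and the 10 bins of 1 Mb with most of each. The difference of gained and lost also ranked bins, and the bin on chromosome 2 was added after its values were seen, as were the arms singled out. Each chromosome was divided into arms at its largest peak-free gap, with chromosomes 13, 14, 15, 21 and 22 taken as long arm. By peak rather than region, 24408 peaks of 6 h and 24713 of 12 h met the rule for gain.

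No annotation or genome of hg19 was used, so gene features, gene lists, lineage markers, HIF motifs and base content were not run and no sequence is printed. Equal lists were made by keeping the widest peaks, with ties in a seeded random order. The class counts, the later overlap and contact with the 0 h list were tested on 20000 simulated regions, where 9 of 9 quantities came back exactly. Arms, bins, widths, split peaks and peaks near the overlap threshold were not part of this simulation. Tools were pandas 2.3.3, SciPy 1.17.1, NumPy 2.4.6 and Matplotlib 3.10.9 under Python 3.11.15.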

Additional observations from a re-analysis of the deposited data

How the results depend on the processing

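Of 62 alternatives, 17 stayed within a tolerance (counts within 1.5 times, shares and ratios within the 95% counting interval), 44 moved beyond it and 1 turned an arm's direction; the causes were not tested except where the construction sets them. Gained and lost regions numbered 13827 and 12158 when peaks less than 1000 bp apart were shared, and 10839 and 8312 with peaks of at least 500 bp, both of which leave fewer regions. Lost regions numbered 14783 with peaks of at least 300 bp and 37914 when at least 0.5 of each peak had to be shared. With 6 h alone, gains and losses were 50587 and 38984, and with 12 h alone 50500 and 39262, since both lists need not hold a region. Gained regions were at least 1.26 times those that a single hypoxia list lacked in each setting where both were counted. Lost regions were 0.626 to 1.06 times those in a single hypoxia list, and above 1 with equal lists alone. Found again in all later lists were 58.0% of gained regions with peaks under 300 bp apart shared, and 72.2% at 500 bp or more; by single list the shares were 72.7, 79.4 and 79.7%. Absent from them were 31.3 and 13.9% of lost regions in the first 2 settings, and 64.6, 58.4 and 51.8% by single list.

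The disagreement of 6 and 12 h was 21.5 and 21.9% with overlap of 0.5 of both, and 19.8 and 16.2% at 500 bp or more. Wider than at 0 h were 55.4 and 53.1% with the narrowest width subtracted, and 55.4% at 12 h without the 7 arms. The ratio on 11p was 0.492 by covered length, 0.654 and 0.611 with 12 h or 6 h alone, 0.511 with peaks of at least 300 bp and 0.285 with equal lists. On 17q these were 2.49, 1.97, 2.04, 2.64 and 1.41. With peaks under 300 bp or under 1000 bp apart shared, or of at least 500 bp, they were 1.93, 2.03 and 2.85. The ratio on 17q reversed to 0.888 with overlap of 0.5 of both, where all autosomes gave 0.743. The ratio of all autosomes, 1.02 in the main setting, moved as well. In the order given for 17q it was 1.41, 1.29, 1.3, 1.4 and 0.822, then 1.08, 1.14 and 1.3. The arm alternatives other than covered length, and those without the 7 arms, were added after seeing the data. Bins with at least 2 times as many gained as lost regions numbered 178 of 983 (18.1%) at 250 kb and 14 of 552 (2.54%) at 5 Mb, and the reverse 160 (16.3%) and 22 (3.99%). Alternatives that need genes or sequence were not run. No paired analysis was possible because each time point has 1 library and the results come from no test. Depth is unknown.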

Other observations

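Clustering was described only by the largest number of regions within 50 kb, which cannot tell whether a class clusters. For regions lacking 12 h alone it was 7 and for those lacking 6 h alone 8, in classes of 15356 and 15252 regions. For the 23081 gained regions it was 7, in 5 separate windows. It was 8 for lost regions, 9 for regions of 6 h alone and 7 for regions of 12 h alone. Among the 5 windows of gained regions, chr6:43744722-43792571 had all 7 overlapped in each of the 24, 48 and 72 h lists. Beside them were 11 regions held by all 3 early lists and 1 lost region. In chr12:11886851-11937148 there were 7 gained and 0 lost regions, of which 4 were in all later lists, and in chr4:3306771-3357314 and chr19:42749168-42793430 6 of 7 were. In chr19:49590068-49639852, 4 of 7 were in all later lists, and all 7 at 48 and at 72 h. Of the lost windows, chr15:29321794-29372016 held 8 lost and 0 gained regions, 6 of which were overlapped again at 72 h, and chr11:112968853-113016923 held 8 lost and 4 gained, again with 6 of the lost overlapped at 72 h. These windows were chosen after their values were seen.

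The division of regions into peaks also differed. In 5472 regions several 0 h peaks corresponded to 1 peak at both 6 and 12 h, and in 2213 regions 1 peak at 0 h corresponded to several at both. Between the hypoxia lists, 1 peak at 6 h corresponded to several at 12 h in 7936 regions and the reverse held in 6294.

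Among regions with 1 peak in each early list, 782 were at least 2 times wider at both 6 and 12 h than at 0 h and 254 at least 2 times narrower at both. Chosen after their values were seen, the largest widening was at chr7:98821582-98822630, with 236 bp at 0 h, 1013 bp at 6 h and 996 bp at 12 h, followed by chr5:80829669-80830963 with 295, 1241 and 1240 bp. The largest narrowing was at chr1:5298929-5300265, with 1304, 368 and 329 bp, followed by chr16:89559716-89560728 with 1013, 302 and 276 bp. On chromosome X, left out above, 418 regions were gained and 479 lost, with 472 of 6 h alone and 439 of 12 h alone.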
